A study of Homo sapiens with 9 samples.

Results

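Cysteine and glutathione are made from methionine in a chain of enzymes that is especially active in liver. The 9 genes described here are CDO1, CTH, CBS, GCLC, GCLM, GSS, MAT2A, MAT2B and AHCY. They were chosen by symbol, with earlier results of these data known, because CDO1 was low with 1 of the compounds while its pathway neighbors were not. The values that chose them are the log2 ratios between compound-treated and vehicle-treated means, so these ratios are given as a description, with no test. Of the 9, 8 had a row in both of the authors' deposited tables, which share 8775 transcripts. CBS had no row under that symbol and is not analysed here.

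Ribosome profiling, which sequences the mRNA fragments covered by translating ribosomes, was performed on Huh7 cells, an established human liver carcinoma line. The cells received 1.5 μM PF-06378503 (PF8503), 1.5 μM of the related compound PF-06446846 (PF846, whose code number is spelled in more than 1 way in the labels) or 0.5% DMSO as vehicle, each for 1 hr and in 3 biological replicates, for 9 libraries in all. All 3 conditions used the same cell line with no further genotype or treatment difference stated. Both compounds bind the ribosome and stall the synthesis of a narrow set of proteins, and the comparison asks which proteins each compound affects at a matched dose and time. The measurements in the deposited tables are the authors' mean of each condition, in read counts normalized by size factors, beside the authors' own comparison columns, which were not used. The value of a single library, its depth, and an error between replicates could therefore not be given for any gene below. Later steps of the study's scripts use replicate numbers that do not match those in the labels, and it is therefore uncertain which libraries a mean averages. There were 9157 transcripts listed for PF8503 and 8839 for PF846. All 9 hepatocyte and hepatoma markers looked for were listed in the PF8503 table, with AFP and ALB holding the highest and second-highest vehicle means (212970 and 148370 normalized counts). Of the 7 markers of blood cells, fibroblasts and endothelium, only PECAM1 had a row, at 170 normalized counts with vehicle.

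In the methionine cycle, methionine adenosyltransferase joins methionine to ATP and so makes S-adenosylmethionine, the methyl donor of the cell. MAT2A is the catalytic subunit of this enzyme outside the adult liver and in hepatoma cells, and MAT2B is its regulatory subunit. AHCY hydrolyses the S-adenosylhomocysteine left after methyl transfer to homocysteine. In transsulfuration, CBS condenses homocysteine with serine, and CTH cleaves the product to cysteine. Cysteine then has competing fates. Glutamate-cysteine ligase, built from the catalytic subunit GCLC and the modifier subunit GCLM, joins it to glutamate, and glutathione synthetase (GSS) adds glycine to give glutathione, the main thiol antioxidant of the cell. CDO1, cysteine dioxygenase, instead oxidizes cysteine to its sulfinic acid, from which taurine and sulfate are made.

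CDO1 (ENSG00000129596) is a reverse-strand gene of 5 exons and 200 codons at chr5:115804733-115816659 (GRCh38, canonical transcript of GENCODE version 44). As background, the compounds act on the nascent chain inside the ribosome, so the first 30 codons of CTH and GSS, the lowest and the highest of the genes other than CDO1 with PF846, are shown. The CTH stretch lies in exon 1, at chr1:70411416-70411505 on the forward strand, and the GSS stretch in exon 2, at chr20:34951763-34951852 on the reverse strand. Both are coding sequence of GENCODE version 44 on GRCh38, written 5′ to 3′, with the start codon in capitals.
CTH: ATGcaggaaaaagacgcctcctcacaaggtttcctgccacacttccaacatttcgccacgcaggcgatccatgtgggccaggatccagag
GSS: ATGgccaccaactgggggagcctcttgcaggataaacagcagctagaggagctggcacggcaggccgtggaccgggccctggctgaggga

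The N-terminal stretches of the 8 proteins differed in hydrophobicity. On the Kyte-Doolittle scale, where positive values are hydrophobic, the average of residues 2 to 30 was -0.017 for CDO1, the highest of the 8, and higher than in 67.9% of all matched proteins of the tables. It was -0.86 for CTH and -0.65 for GSS. For the others it ranged from -0.79 in GCLC to -0.30 in AHCY, with -0.42 in GCLM, -0.57 in MAT2B and -0.40 in MAT2A. All 8 means were therefore below 0, and the N-terminus of CDO1 was not at the hydrophobic end of the proteins measured. The GC content of the first 30 codons was 56.7% in CDO1, 55.6% in CTH and 65.6% in GSS, within the 54.4% to 75.6% seen over the 8 genes.

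With PF846, CDO1 had the lowest ratio of the 8 genes. Its authors' mean was 199 normalized counts with vehicle and 110 with PF846, or 55.1% of vehicle, a log2 ratio of -0.86. This placed it 18th from the lowest of all 8839 transcripts in the PF846 table. With PF8503 at the same dose and time, the means of CDO1 were 232 with vehicle and 216 with the compound, or 93.3% of vehicle, a log2 ratio of -0.10, which was 1590th from the lowest of 9157. The log2 ratio was thus 0.76 higher with PF8503 than with PF846, the 10th highest such difference among the 8775 transcripts in both tables. This difference has no interval, since neither ratio has a replicate error and both use the same vehicle libraries. The 2 ratios of CDO1 were also counted over different codons, as described below. Such a difference in region was found for 134 of the 8775 transcripts.

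The spread between transcripts gives a scale for these values. Among the 500 transcripts nearest to CDO1 in vehicle mean, the central 95% of log2 ratios ran from -0.25 to 0.21 with PF846 and from -0.26 to 0.30 with PF8503. None of the 500 was lower than CDO1 with PF846, whereas 18.2% were lower than CDO1 with PF8503. This range measures the spread between transcripts of like abundance and not the spread between replicates of CDO1. CDO1 was chosen for its low value with PF846, so its place there restates the choice. Of the 8775 transcripts in both tables, 42, with CDO1 among them, were counted over fewer codons with PF846, as described below. Of these 42, 13 were lower than CDO1 with PF846.

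**Figure D1:**
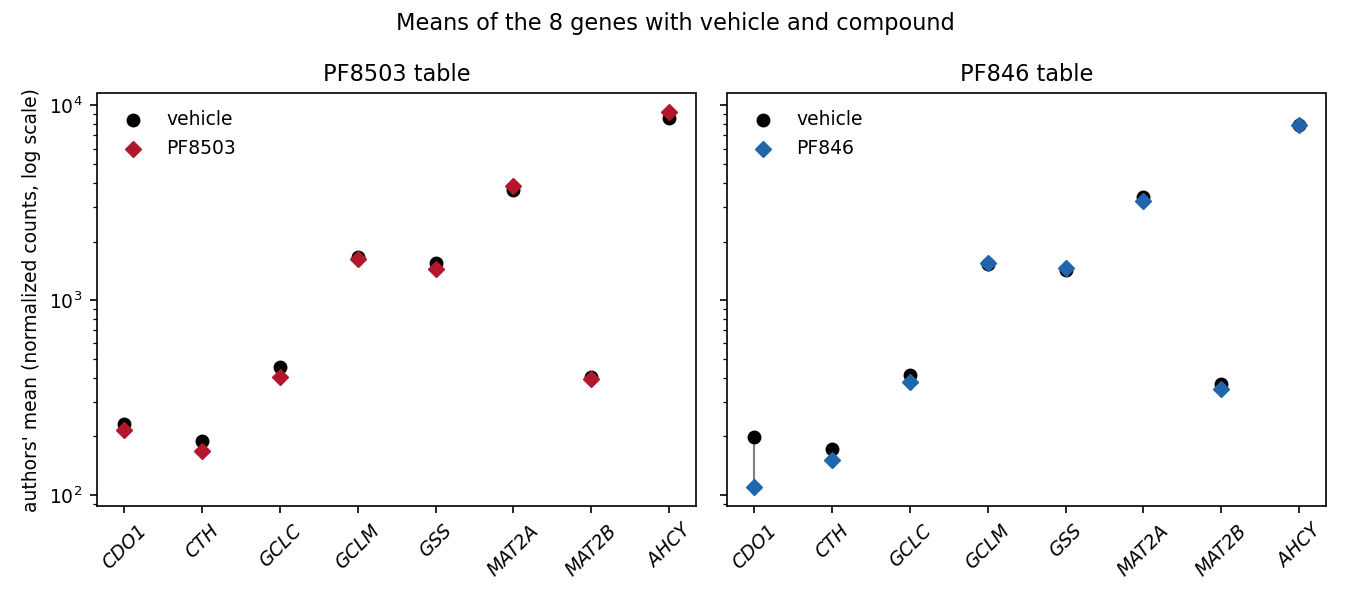
Authors' means in normalized counts (log axis) for the 8 genes, with vehicle as black circles and compound as colored diamonds, from the PF8503 table at left and the PF846 table at right, joined by a line for each gene. CDO1 with PF846 (110 against 199 with vehicle) is the widest gap, and the other pairs of symbols lie close together or overlap.

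The codons counted for CDO1 were not the same for the compounds. The authors summed reads 3′ of the position where the cumulative reads of treated and vehicle cells differed most (DMax) if that difference was large, and otherwise from 10 codons after the start. Since the vehicle libraries are common to both tables, the vehicle means of a transcript counted over the same codons stand at a constant ratio, which was 1.09. For CDO1 the ratio was 1.17, and the region counted in the PF846 table held 93.7% of the vehicle signal of the region in the PF8503 table. The missing 6.33% equals the signal of 11.4 codons at even density over the 180 codons between the trimmed ends. This assumes that the PF8503 region of CDO1 covers all 180, which the vehicle means do not show. A region that differed between the tables, by more than 0.002 on the log2 scale, was found for 134 of 8775 transcripts (1.53%), and CDO1 was the only 1 of the 8 genes among them. For the other 7 the vehicle signal of the PF846 region was 100% of that in the PF8503 region after rounding.

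CDO1 belonged to 42 transcripts with a shorter region in the PF846 table. Of these, 23 had a log2 ratio with PF846 of -0.5 or lower, where 0.396% of all transcripts in the PF846 table did, and 13 were lower than CDO1. The median of the 42 was -0.57 with PF846 and -0.033 with PF8503, beside medians over all transcripts of 0.00086 and 0.013. The starting codon of such a region was itself chosen with the reads of treated cells, and how far this choice lowers the ratio was not tested. The regions of these transcripts kept from 46.0% to 99.7% of the vehicle signal, with a median of 83.6%, and 9 of the 42 kept more than CDO1.

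The 5 transcripts most like CDO1 were taken by the smallest Euclidean distance over the 2 log2 ratios, among the 8774 other transcripts in both tables. They were SUMF2, a paralog of the sulfatase-modifying factor in the endoplasmic reticulum (log2 ratio -0.74 with PF846 and -0.11 with PF8503), EMC7, a subunit of the endoplasmic reticulum membrane protein complex (-0.90 and 0.012), LRP8, a receptor for apolipoprotein E (-0.95 and -0.021), MRPL45, a mitochondrial ribosomal protein (-0.72 and -0.16), and FAM210B, a mitochondrial membrane protein (-0.69 and -0.076). The region counted in the PF846 table was shorter for SUMF2, EMC7, LRP8 and FAM210B, which kept 90.3%, 91.3%, 85.4% and 65.8% of the vehicle signal, and was the same in both tables for MRPL45. Their mean hydropathy over residues 2 to 30 was 0.66 for SUMF2, 1.23 for EMC7, 1.53 for LRP8, 0.24 for MRPL45 and 0.63 for FAM210B. Each was higher than the -0.017 of CDO1, which itself was higher than in 67.9% of all matched proteins. Where the 5 stand among all proteins was not computed. None of the 5 belongs to the pathways described here.

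**Figure D2:**
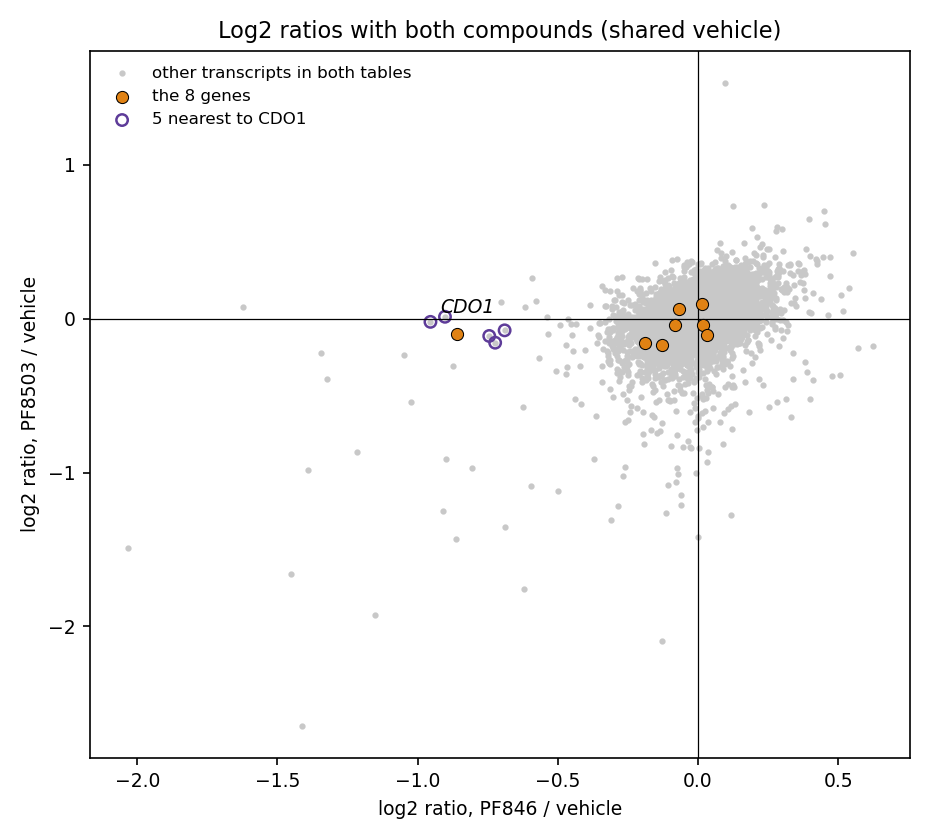
Log2 ratio with PF8503 (y axis) against log2 ratio with PF846 (x axis) for the transcripts in both tables, in grey, with the 8 genes as filled orange circles and the 5 transcripts nearest to CDO1 as open circles. CDO1, chosen for its low value with PF846, lies at -0.86 on the x axis and -0.10 on the y axis. Both axes share the vehicle libraries.

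CTH (ENSG00000116761, chr1:70411218-70439851, forward strand, 405 codons), the transsulfuration enzyme that releases cysteine, was below vehicle with both compounds. Its authors' means were 188 with vehicle and 169 with PF8503, a log2 ratio of -0.16, and 173 with vehicle and 151 with PF846, a log2 ratio of -0.19. These were the second-lowest values of the 8 genes with each compound. They lay inside the central 95% of the 500 transcripts nearest in vehicle mean, with 11.6% of those lower with PF8503 and 8.2% lower with PF846. The log2 ratios with the compounds were 0.033 apart.

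Among the glutathione synthesis genes, GCLC (ENSG00000001084, chr6:53497341-53616970, reverse strand, 637 codons) was also below vehicle with both compounds. The means of this catalytic subunit were 452 with vehicle and 402 with PF8503, a log2 ratio of -0.17 that was the lowest of the 8 genes with that compound. With PF846 they were 414 and 378, a log2 ratio of -0.13. Of the 500 transcripts nearest in vehicle mean, 8.0% were lower than GCLC with PF8503 and 8.2% with PF846. GCLM (ENSG00000023909, chr1:93885199-93909456, reverse strand, 274 codons), the modifier subunit, had means of 1674 and 1627 in the PF8503 table (log2 ratio -0.042) and of 1533 and 1550 in the PF846 table (log2 ratio 0.016). These values of GCLM were the closest to vehicle among the glutathione synthesis genes. GSS (ENSG00000100983, chr20:34928432-34956027, reverse strand, 474 codons), which completes glutathione, had means of 1561 and 1448 in the PF8503 table (log2 ratio -0.11) and of 1428 and 1462 in the PF846 table (log2 ratio 0.034). The log2 ratio of GSS was 0.14 lower with PF8503 than with PF846 (difference -0.14), the lowest difference of the 8, with 12.4% of like transcripts lower than GSS with PF8503 and 72.4% with PF846.

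In the methionine cycle the values lay close to vehicle. AHCY (ENSG00000101444, chr20:34280268-34311802, reverse strand, 432 codons), the highest of the 8 in vehicle mean, had means of 8610 with vehicle and 9210 with PF8503, a log2 ratio of 0.097 and the highest of the 8 with that compound. Its means in the PF846 table were 7881 and 7965, a log2 ratio of 0.015. MAT2A (ENSG00000168906, chr2:85539168-85545281, forward strand, 395 codons) had means of 3697 and 3861 in the PF8503 table (log2 ratio 0.063) and of 3384 and 3232 in the PF846 table (log2 ratio -0.066), so the sign differed between the compounds, by 0.13. Of the 500 transcripts nearest in vehicle mean, 74.2% were lower than MAT2A with PF8503 and 8.6% with PF846. MAT2B (ENSG00000038274, chr5:163503114-163519558, forward strand, 334 codons) had means of 405 and 393 in the PF8503 table (log2 ratio -0.044) and of 371 and 350 in the PF846 table (log2 ratio -0.084). Each of these values lay inside the central 95% of like transcripts.

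**Figure D3:**
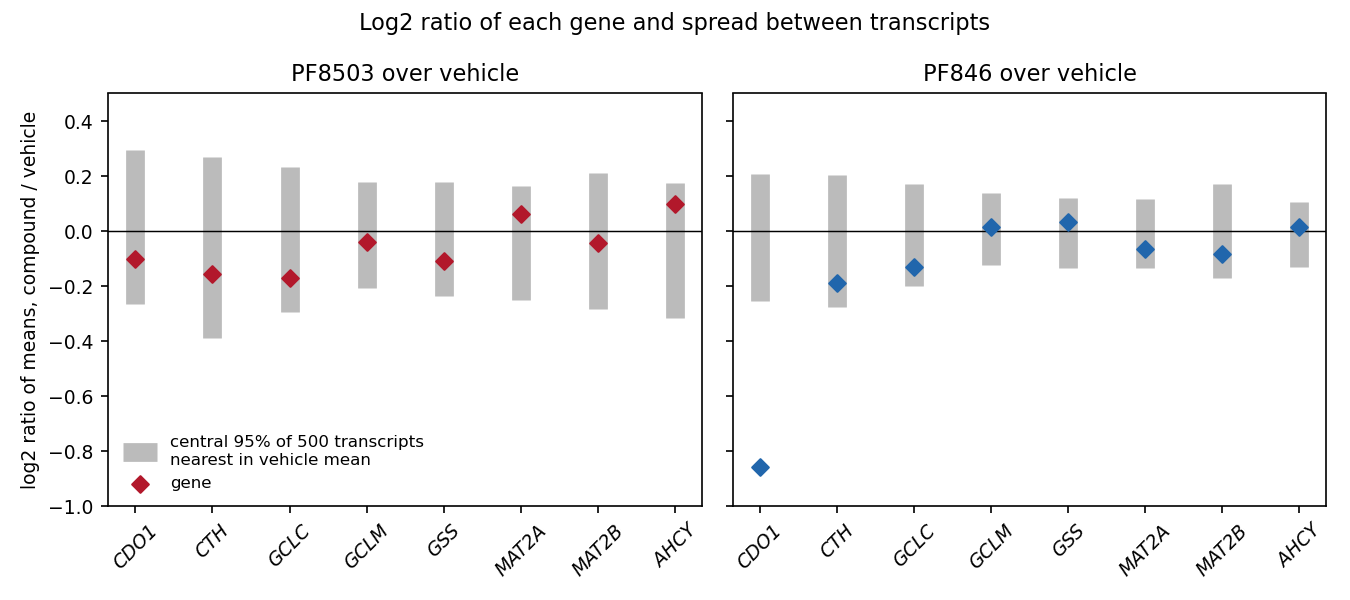
Log2 ratio of compound over vehicle (diamonds) for the 8 genes, with PF8503 at left and PF846 at right. Grey bars span the central 95% of the 500 transcripts nearest to each gene in vehicle mean. Only CDO1 with PF846 (-0.86, against a bar from -0.25 to 0.21) lies outside its bar. The genes were chosen with this low value known, so its place restates the choice.

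Counted together, 0 of the 8 genes had an absolute log2 ratio of at least 0.5 with PF8503, where 1.32% of all transcripts did, and 1 of the 8, CDO1, did with PF846, where 0.475% of all transcripts did. Because CDO1 was chosen for this value, nothing is read from that count. At a lower threshold of 0.25 the counts were again 0 of 8 and 1 of 8, beside 8.02% and 3.79% of all transcripts. A log2 ratio below 0 was seen for 6 of the 8 with PF8503, against 45.3% of all transcripts, and for 5 of the 8 with PF846, against 49.7%. The median of the 8 was -0.072 with PF8503 and -0.075 with PF846, beside medians over all transcripts of 0.013 and 0.00086. Without CDO1 the medians of the 7 other genes were -0.044 and -0.066, and their lowest values were -0.17 and -0.19. Transcript levels were not measured separately, so a change in mRNA and a change in its translation cannot be told apart in any of these values.

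Levels of different genes were compared per length, as the vehicle mean per 1000 codons after the 10 codons at each end were left out, from the PF8503 table, where the region of none of the 8 was the shorter. AHCY had 20898 normalized counts per 1000 codons, higher than 96.7% of the transcripts. MAT2A followed with 9858, GCLM with 6592 and GSS with 3438. MAT2B and CDO1 had nearly equal levels of 1291 and 1287, higher than 60.5% and 60.4% of transcripts. GCLC (733) and CTH (490) were the lowest, the latter higher than 34.1% of transcripts. CDO1 was thus somewhat above the middle of the transcripts listed in the PF8503 table, which had passed the authors' count filter. Its vehicle level per codon was above those of CTH and GCLC. Whether neighbors in this order differ beyond the spread between libraries could not be determined. Each level also assumes that all codons between the trimmed ends were counted, which was not checked.

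**Figure D4:**
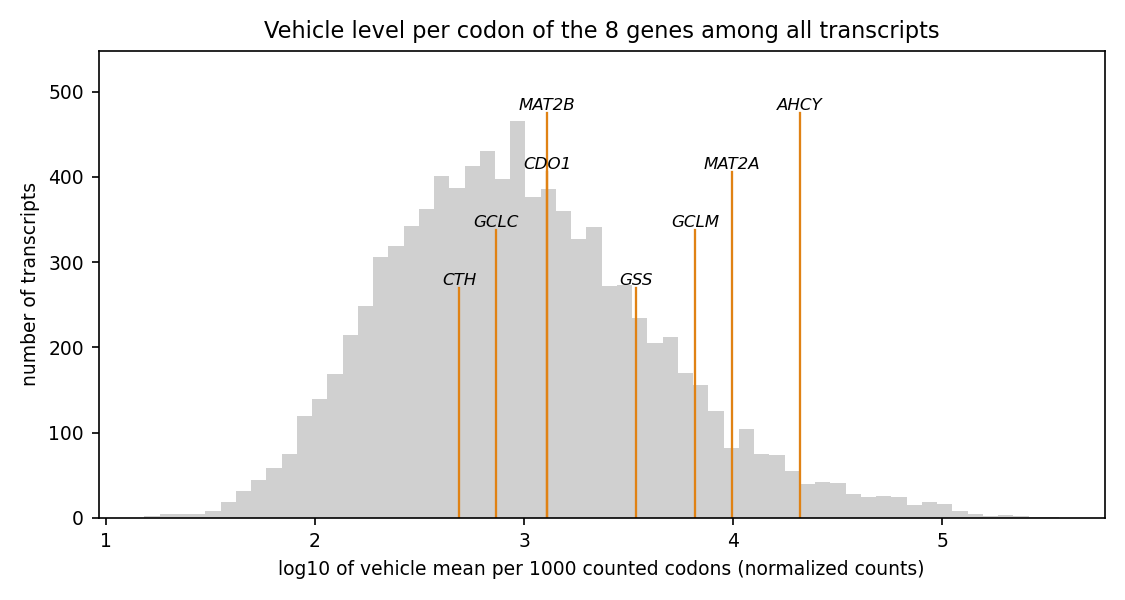
Histogram of the vehicle mean per 1000 counted codons (log10 of normalized counts) over transcripts listed in the PF8503 table. The 8 genes are marked by orange lines whose heights only separate the labels. AHCY (20898) and MAT2A (9858) lie in the upper tail, and CDO1 and MAT2B near the middle with almost the same level.

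The subunits of 1 enzyme were unequally represented. Per codon, GCLC stood at 0.111 times GCLM with vehicle, 0.102 times with PF8503 and 0.100 times with PF846. MAT2A stood at 7.64 times MAT2B with vehicle, 8.23 times with PF8503 and 7.73 times with PF846. In both pairs the order was the same in every condition. The level of CTH per codon was 0.38 times that of CDO1 with vehicle and 0.37 times with PF8503. In the PF846 table it was 0.41 times with vehicle and 0.65 times with PF846. There CDO1 was counted over its shorter region but divided by the full 180 codons, which lowers its level and raises both of these ratios. The step from 0.41 to 0.65 is between values of the same region. It follows from means with PF846 of 55.1% of vehicle for CDO1 and 87.7% for CTH.

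Genes around these steps were described in 7 lists of 112 symbols in total, of which 93 had a row in both tables. Over these 93, MGST3 and SAT1, or 2 genes, had a log2 ratio of -0.5 or lower with PF8503, where 1.08% of all transcripts did, and 1, CDO1, with PF846, where 0.396% did. None reached 0.5 or higher with either compound, beside 0.24% and 0.0792% of all transcripts. The medians of the 93 were 0.021 with PF8503 and 0.0031 with PF846.

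Transsulfuration and cysteine breakdown had 11 of 18 symbols in both tables and medians of -0.011 and -0.060. Some of its genes were listed under an old and a new symbol, such as CCBL1 and KYAT1, so it holds fewer genes than symbols. The log2 ratios of its genes other than CDO1 lay between -0.29 and 0.061 over both compounds. MPST, which transfers sulfur from a cysteine product, was the lowest with PF8503 at -0.25, with a PF8503 region that held 96.7% of the vehicle signal of its PF846 region, and it was -0.069 with PF846. CCBL1, a lyase of cysteine conjugates, was -0.096 with PF8503 and -0.29 with PF846, from low vehicle means of 90.6 and 83.0 normalized counts. GOT2, the mitochondrial aspartate aminotransferase, was the highest with both compounds, at 0.061 and 0.046. ADO, the other thiol dioxygenase, which oxidizes cysteamine, was -0.18 with PF8503 and -0.078 with PF846.

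In glutathione synthesis and turnover, 14 of 18 genes were in both tables, with medians of -0.026 with PF8503 and 0.0050 with PF846 and none past 0.5. SLC25A40, a mitochondrial carrier related to the glutathione importer SLC25A39, was the lowest with both compounds, with means of 202 and 159 in the PF8503 table (log2 ratio -0.35) and of 185 and 151 in the PF846 table (log2 ratio -0.29). SLC25A39 itself was at 0.13 and 0.014. The highest were GGCT, which releases 5-oxoproline from gamma-glutamyl peptides, at 0.26 with PF8503, and OPLAH, which opens 5-oxoproline to glutamate, at 0.079 with PF846. For uptake, 8 of 10 genes were in both tables, with medians of 0.066 and 0.053. The cystine importer SLC7A11 was at 0.052 and -0.0010, and its partner SLC3A2 at 0.16 and 0.12, the highest of the list with PF846. SLC1A5, a glutamine transporter, was the highest with PF8503 at 0.16, and SLC38A2 the lowest with both, at -0.10 and -0.15.

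Among genes that use glutathione, 26 of 31 were in both tables, with medians of 0.019 and -0.0064. MGST3, a membrane-bound glutathione transferase and peroxidase, was the lowest with both compounds. Its means were 1626 and 1066 in the PF8503 table, a log2 ratio of -0.61, and 1869 and 1631 in the PF846 table, a log2 ratio of -0.20. The PF8503 region of MGST3 held 79.6% of the vehicle signal of its PF846 region. The highest were GPX1, a glutathione peroxidase, at 0.29 with PF8503, and GSTA1, a hepatic glutathione transferase, at 0.38 with PF846. All 20 genes of the thioredoxin and NRF2 list were in both tables, with medians of 0.042 and 0.0059. TXN2, the mitochondrial thioredoxin, was the lowest with PF8503 at -0.26, TXNRD1 the lowest with PF846 at -0.079, and SRXN1 the highest with both at 0.20 and 0.14.

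All 10 genes of methionine salvage and polyamines were in both tables, with medians of 0.066 and 0.050. SAT1, which acetylates polyamines, had means of 619 and 429 in the PF8503 table, a log2 ratio of -0.53, and of 567 and 527 in the PF846 table, a log2 ratio of -0.10. The same region of SAT1 was counted in both tables. MRI1 was the highest with PF8503 at 0.17, ADI1 the lowest with PF846 at -0.14 and APIP the highest with PF846 at 0.14. The 6 of 7 cupin-fold enzymes in both tables, which share the barrel fold of CDO1, had medians of -0.11 and -0.080. Their lowest was ADI1, at -0.23 with PF8503, and their highest HGD, at 0.0065 and 0.032. The lowest of the 6 with PF846 was also ADI1, at -0.14, against -0.86 for CDO1.

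**Figure D5:**
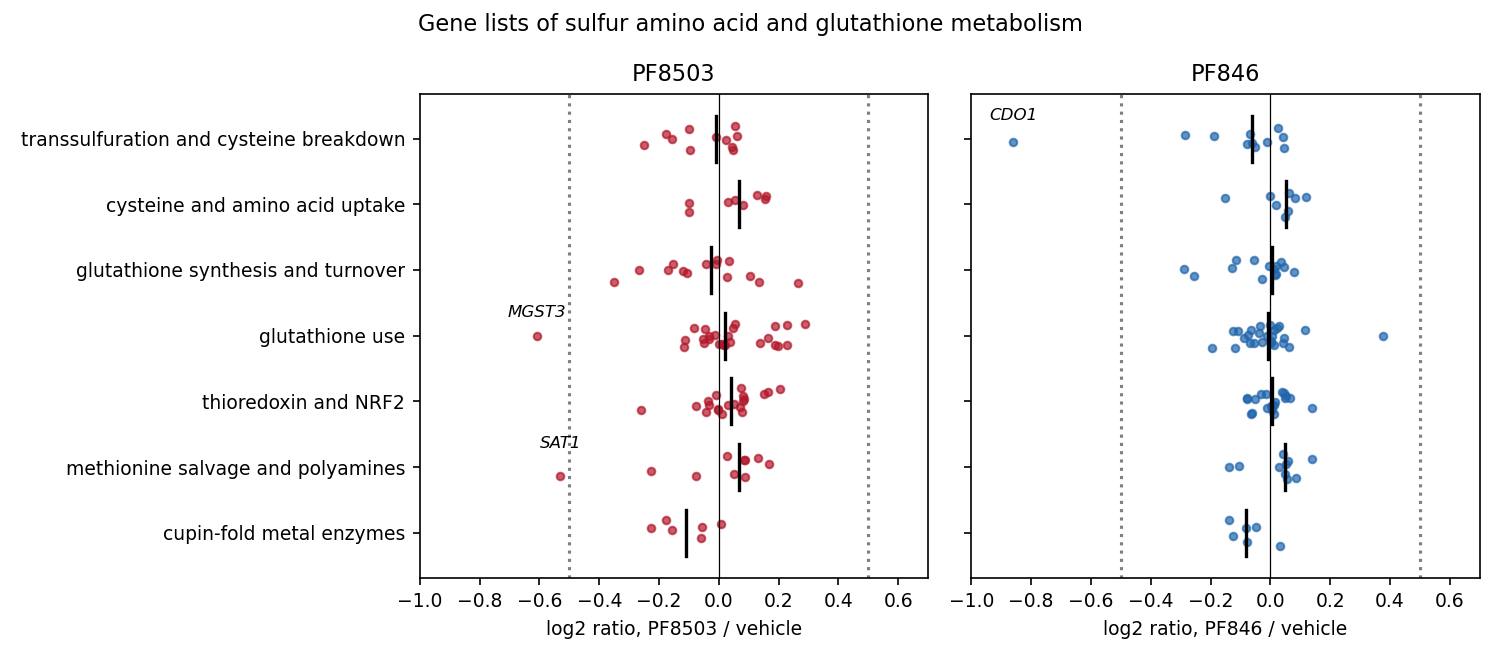
Log2 ratio of compound over vehicle (x axis) for each gene of the 7 lists (rows), with PF8503 at left and PF846 at right. Points are genes, black bars are list medians and dotted lines mark -0.5 and 0.5, past which lie MGST3 and SAT1 with PF8503 and CDO1 with PF846.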

How the data were processed

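Ribosome-protected fragments from 9 libraries of Huh7 cells were compared as vehicle, PF8503 and PF846. As the methods describe, the authors removed adapters and ribosomal RNA reads, aligned the rest with Bowtie to canonical coding transcripts of GENCODE version 24 on GRCh38, kept reads with 1 position, and summed each transcript from its DMax codon (Z score of 2 or above) or, lacking one, from codon 10 onward, without the last 10 codons and only above 30 counts. Values of the authors are signal: counts divided by DESeq size factors, then averaged over each condition. Versions of Bowtie and DESeq are not given in the sources used here. The other columns hold the authors' own fold changes and p-values, which were not used.

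Ratios, ranks, medians and counts past a log2 ratio of 0.5 were computed here from the means, with no pseudocount and no test, since the tables hold no single library. Depth per library is therefore unknown. Members and gene lists were chosen with earlier results of these data known. Named genes were the members, the 5 transcripts nearest to CDO1, and from each list those past 0.5 and the lowest and highest with each compound. SLC7A11, SLC25A39, ADO and CCBL1 were named after their values were seen. Levels per codon were to be taken from the PF846 table, and the PF8503 table was used after the shorter region of CDO1 was seen. Coding lengths, sequences and the residues behind the hydropathy values are from GENCODE version 44, matched for 9152 of 9221 symbols (99.3%). A further gene list and a coding sequence are not reported here. The log2 ratio, the count past 0.5 and the comparison of regions were tested on simulated counts, and the other steps were not. The simulation had counting noise only and shortened regions by a fixed share. It did not choose a start from treated reads. Python 3.11.15, numpy 2.4.6, pandas 2.3.3, matplotlib 3.10.9, statsmodels 0.14.6 and Biopython 1.88 were used.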

Additional observations from a re-analysis of the deposited data

How the results depend on the processing

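No value of a single library was in the tables, so leaving out a replicate was not run and no ratio has a replicate error. No paired analysis was possible because the columns are means over replicates. Of 194 values under the alternatives tried, 180 stayed within the limits set for them, 14 moved and 0 changed sign beyond them. Many alternatives could hardly move a value, so the 180 is not a measure of robustness. Centring shifted every ratio by the median of its table, 0.013 with PF8503 and 0.00086 with PF846. The filter at a vehicle mean of 30 removed no transcript, since the lowest were 36.1 and 39.4. The filter at 100 removed none of the 8 genes. The limit for the ratio of a single gene was the spread of like transcripts. For a difference between compounds it was the root of the summed squares of both spreads. For a median it was the spread among the genes of the set. The limit was 1.5 times for counts and the 95% Wilson interval for shares and percentiles. CDO1 with PF846 ranged from -0.86 to -0.80 under centring on the median, total scaling, or 1 or 10 normalized counts added to both means, and its difference between the compounds from 0.71 to 0.76. At an absolute log2 ratio of at least 1, the number of the 8 genes past the threshold with PF846 was 0, because CDO1 lies at -0.86. The vehicle level of CDO1 per codon was higher than 57.3% of transcripts in the PF846 table and than 60.4% in the PF8503 table. Its region is shorter in the PF846 table, but its counts were divided by the same length. Genes with the same region in both tables also had lower shares in the PF846 table. These were 31.8% against 34.1% in the PF8503 table for CTH, 43.3% against 45.4% for GCLC and 59.0% against 60.5% for MAT2B. At a threshold of 0.25, which 8.02% of all transcripts passed with PF8503 and 3.79% with PF846, the number of genes past it moved in 4 lists. It was 1 with PF8503 and 2 with PF846 for transsulfuration and cysteine breakdown, 3 and 2 for glutathione synthesis and turnover, 2 and 1 for glutathione use, and 1 with PF8503 for the thioredoxin and NRF2 list.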
